A study of Homo sapiens with 8 samples.

Results

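The DNA replication machinery is the set of proteins that license origins, unwind the DNA, copy it and supply its building blocks. It was followed here through 48 genes, named by a list of symbols, and all 48 of the list were present among the 56638 symbols of both count tables. RNA was sequenced from SCC25, a cell line from a squamous cell carcinoma of the tongue, in 8 libraries that formed 4 groups of 2 replicates. The group called siRNA control was transfected with non-targeting siRNAs, and the group called ETS1 siRNA with a pool of siRNAs against ETS1, a transcription factor of the ETS family that is abundant in this line. The group called shCON carried a stably integrated lentiviral hairpin without a target, and the group called shETS1 a stably integrated hairpin against ETS1. The shRNA groups had been selected with puromycin, all cells were kept in medium with serum and hydrocortisone, and shETS1 rested on a single hairpin construct, so that an effect of that hairpin and an effect of ETS1 loss cannot be told apart. The interval from transfection to harvest is not given in the sources used here. The study's methods call the siRNA-treated cells biological replicates, while the labels do not say whether the shRNA replicates were separate cultures, so that the p-values after shRNA measure the spread between these libraries, which may be technical.

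Before a cell can copy its DNA, the origin recognition complex (ORC) marks origins, and CDC6 and CDT1 load the ring-shaped MCM2-7 helicase onto them, a step that geminin (GMNN) limits to once per cycle. The kinase CDC7 with its partner DBF4, together with CDC45, the GINS complex and MCM10, then turns the loaded rings into working helicases. Polymerase alpha-primase starts each strand, polymerases delta and epsilon extend it while held on the DNA by the PCNA clamp and its RFC loader, RPA covers the single strands, FEN1 and LIG1 finish the lagging strand, and CAF-1 places histones on the new DNA. Most of these genes are transcribed in late G1 and S phase under E2F factors, and their transcripts are therefore widely used as signs of cycling cells.

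The targeted gene checked the labels. Levels are given as CPM, read counts relative to a library size that was scaled by the TMM method, separately in either table. ETS1 was at 288 and 248 CPM in siRNA control and 17.4 and 13.2 CPM in ETS1 siRNA, a log2 fold change with its standard error of -4.13 ± 0.19. In the shRNA table ETS1 was at 82.2 and 72.016 CPM in shCON and 9.75 and 11.045 CPM in shETS1 (-2.89 ± 0.10). The total counts ranged from 15954616 to 25953213 per library; the replicates of each group were farther apart than sampling noise would give. RNAs without a poly(A) tail took at most 0.00339% of the counts in siRNA libraries, 5.61% and 6.63% of them in shCON, but 12.3% and 9.64% of them in shETS1. The 9 keratinocyte and squamous markers were present in all libraries and summed to between 16109 and 28580 CPM, KRT5 leading with 5658 to 10172 CPM. None of them was called after siRNA, and 4 were called higher and 3 lower after shRNA, where 29.7% and 30.9% of all genes tested were. The 6 fibroblast markers summed to 42.3 to 50.5 CPM in the siRNA libraries, 241 and 271 CPM in shCON and 2060.2 and 1956 CPM in shETS1. All 4 tested after shRNA were called higher, none was called after siRNA, and the sums in shETS1 came mostly from LUM (1355 and 1287 CPM) and DCN (677 and 644 CPM), while the fibroblast markers THY1 and PDGFRB were at most 0.39 CPM there. The 5 leukocyte markers summed to at most 4.003 CPM in any library and none was called. The 4 endothelial markers summed to at most 24.02 CPM, of which KDR, the 1 of them called (higher, after shRNA), made nearly all, while PECAM1 was at 0 in all libraries. The part that these differences between the shRNA groups had in the results below was not tested, except that the count of replication genes called lower after shRNA was 46 also with library sizes and scaling computed without the RNAs that lack a poly(A) tail and without mitochondrial genes.

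Promoters give the context of these genes, since E2F and ETS factors both act through short DNA words near start sites. RefSeq promoters, the 250 bases before and 50 after a gene's start in GRCh38.p14, were found for 42 of the 48 genes. The genes without one were MCM4, MCM5, GINS4, RPA2, RPA3 and POLD3. The E2F words searched on both strands were TTTCCCGC, TTTCGCGC, TTTGCCGC and TTTGGCGC. At least 1 of them stood in the promoters of 20 of the 42 replication genes, 47.6%, compared with 3.99% of all 27305 genes with a promoter and 5.38% of the 14148 protein-coding ones. The words lay in all 4 MCM2-7 genes with a promoter and in both genes of polymerase epsilon, and in none of the CAF-1 or polymerase delta genes that had one. The following 30-base windows, each upstream of the start and written along the gene, show an E2F word in capitals. CDT1, GINS2 and LIG1 are shown because they were called after siRNA, MCM6, POLA2 and TYMS because they were among the genes that fell most after shRNA, PCNA because it is the sliding clamp itself, and ORC3 because it was the 1 gene with a promoter that was called in neither comparison.
CDT1, chr16:88803743-88803772, plus strand: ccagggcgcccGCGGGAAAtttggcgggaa
GINS2, chr16:85688967-85688996, minus strand: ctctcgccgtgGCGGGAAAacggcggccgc
LIG1, chr19:48170440-48170469, minus strand: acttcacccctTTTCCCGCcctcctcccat
MCM6, chr2:135876575-135876604, minus strand: ggctttgcaTTTGGCGCGAAAtccctttcc
POLA2, chr11:65261898-65261927, plus strand: ttggctcccggTTTCGCGCatgcgtgcact
TYMS, chr18:657603-657632, plus strand: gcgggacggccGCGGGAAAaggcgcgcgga
PCNA, chr20:5126663-5126692, minus strand: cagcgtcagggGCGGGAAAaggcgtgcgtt
ORC3, chr6:87590105-87590134, plus strand: ctgcagccgcgagggcgcGCGGGAAAtccc
In MCM6 the capitals run over overlapping words of both strands. A match is a description of the letters and not evidence that a factor binds there.

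The ETS word searched, CCGGAAG on either strand, was found in 6 of the 42 genes, 14.3%, near the 12.2% of all genes with a promoter. The 6 genes were RRM2, RFC4, PRIM2, GINS3, GINS2 and POLA1. Windows of RRM2, which fell most of all members after shRNA, of PRIM2, which was among those that fell least, and of POLA1, where the same word on the other strand lies next to the 1 marked, are given with the ETS word in capitals.
RRM2, chr2:10122520-10122549, plus strand: cccgggggtctCCGGAAGgcgccggcggag
PRIM2, chr6:57317600-57317629, plus strand: tctgtgctagtcacttcctCTTCCGGtttc
POLA1, chrX:24693842-24693871, plus strand: tggccttccggCCGGAAGtccgcagcctcc
The NF-Y word CCAAT stood in 25 of 42 replication promoters, 59.5%, and in 39.7% of all genes with a promoter. The CHR word TTTGAA, known from promoters of mitotic genes, stood in 2 of 42, 4.76%, against 18.2% of all. The plot of motif shares sets these side by side with other gene lists.

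**Figure D1:**
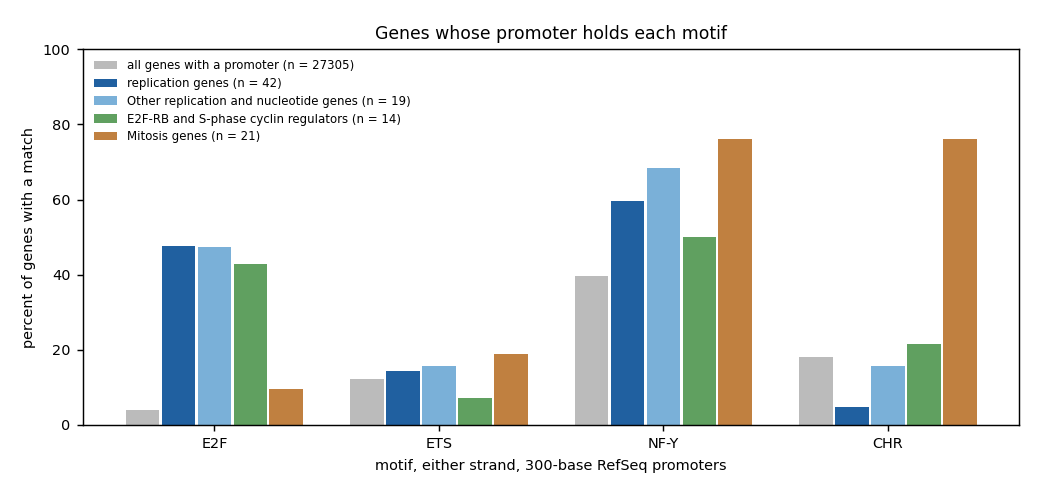
Percent of genes whose 300-base RefSeq promoter holds each word on either strand, for all genes with a promoter and for 4 gene lists (n in the legend). The E2F word is found in 47.6% of the replication genes and 9.52% of the mitosis genes, and the CHR word in 4.76% and 76.2%.

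The 2 kinds of knockdown moved the replication genes in different ways. After shRNA 46 of the 48 were called lower and 0 higher, against a background of 30.9% of all 16481 genes tested called lower, 29.7% called higher and 60.6% called in either direction. After siRNA 0 were called lower and 5 higher, where 2.27% and 1.13% of all 14742 genes tested were called lower and higher, 3.41% in all. A gene was called at an adjusted p under 0.1 in edgeR's quasi-likelihood F-test (two-sided) with Benjamini-Hochberg adjustment over all genes tested, and all 48 genes passed the filter on low counts in both tables. In bulk RNA, fewer cells in S phase and less RNA of these genes per cell cannot be told apart.

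The median log2 fold change of the 48 genes was -0.83 after shRNA, with quartiles of -1.14 and -0.50 and a range from -1.79 for RRM2 to 0.091 for RPA2. All genes tested had a median of 0.00066 and quartiles of -0.42 and 0.38 in that comparison. Of the replication genes 16 were called and at least 2-fold lower, 33.3%, where 7.78% of all genes tested were. In 46 of the 48 both shETS1 libraries lay below both shCON libraries, a pattern that 38.6% of all genes tested showed, while 0 of the 48 showed the reverse, which 38.1% of all did. After siRNA the median was 0.16, with quartiles of 0.062 and 0.32, against a median of 0.0018 and quartiles of -0.22 and 0.21 over all genes tested. In the siRNA comparison 41 of the 48 estimates lay above zero, and in 31 of the 48 both ETS1 siRNA libraries lay above both controls, against 25.7% of all genes tested.

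**Figure D2:**
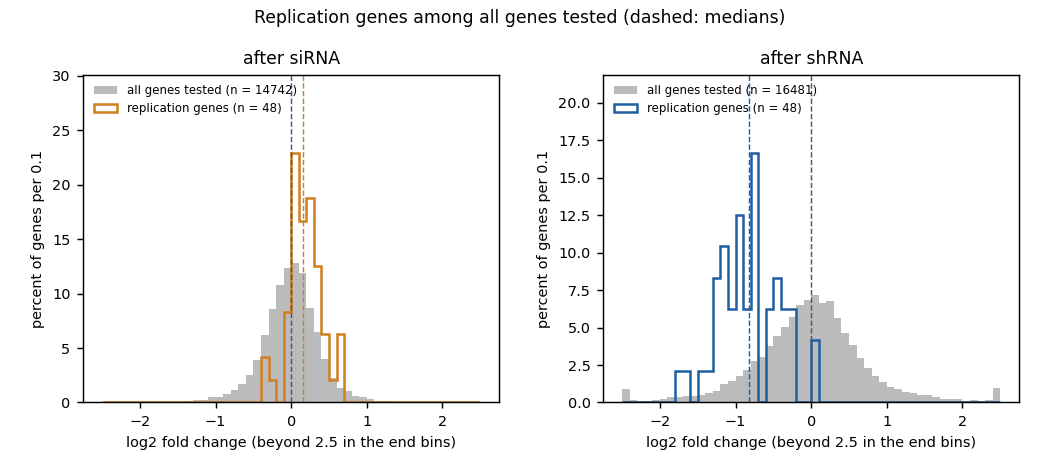
Share of genes per 0.1 of log2 fold change for all genes tested (grey) and the 48 replication genes (outline), after siRNA and after shRNA, with medians dashed. The replication genes centre on 0.16 after siRNA and on -0.83 after shRNA.

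The summed level of the 48 genes gave the same picture in each library. It was 3876 and 4086 CPM in the siRNA control libraries and 4578 and 4686 CPM in the ETS1 siRNA libraries. In the shRNA table it was 4508 and 4679 CPM for shCON against 2697 and 2675 CPM for shETS1. In shETS1 replicates 1 and 2 the median member stood at -0.81 and -0.87 on the log2 scale relative to the mean of shCON, with 46 and 47 of the 48 genes below that mean. The ETS1 siRNA replicates had medians of 0.17 and 0.17 relative to their own control.

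**Figure D3:**
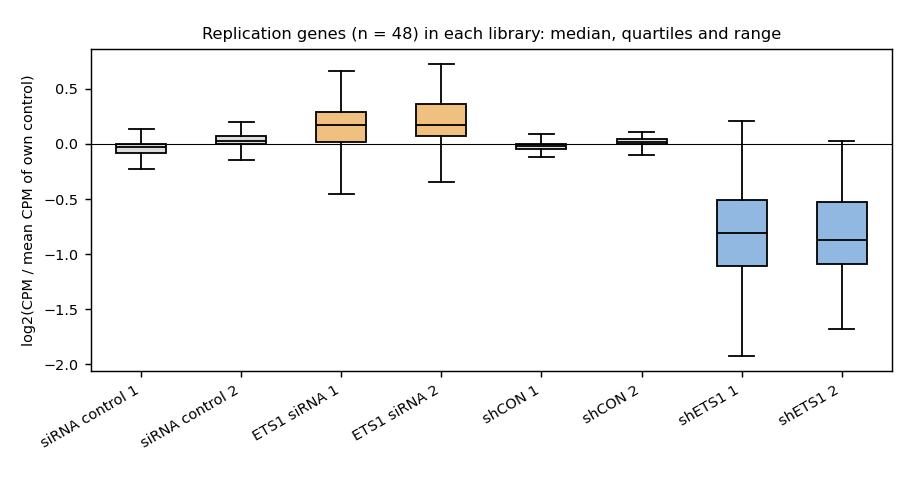
Log2 ratio of each of the 48 genes to its mean CPM in the control group of the same table, in each of the 8 libraries. Lines are medians, boxes quartiles and whiskers the full range. Both shETS1 libraries lie mostly below zero (medians -0.81 and -0.87) and both ETS1 siRNA libraries slightly above it (medians 0.17 and 0.17).

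The 5 genes called after siRNA were CDT1, GINS2, FEN1, LIG1 and TK1, all higher. They did not form 1 complex: they act in licensing, in the active helicase, in lagging strand maturation and in thymidine salvage. These calls were weak. At an adjusted p under 0.05 only CDT1 was called, DESeq2 called 7 members higher, and leaving out siRNA control replicate 1 or 2 or ETS1 siRNA replicate 1 or 2 gave 0, 2, 9 and 1 calls. A total of 16 members had an unadjusted p under 0.05, where 2721 of all 14742 genes did. After shRNA the count of members called lower was 45 to 47 under every alternative tried. The plot of changes by complex gives every gene in both knockdowns.

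**Figure D4:**
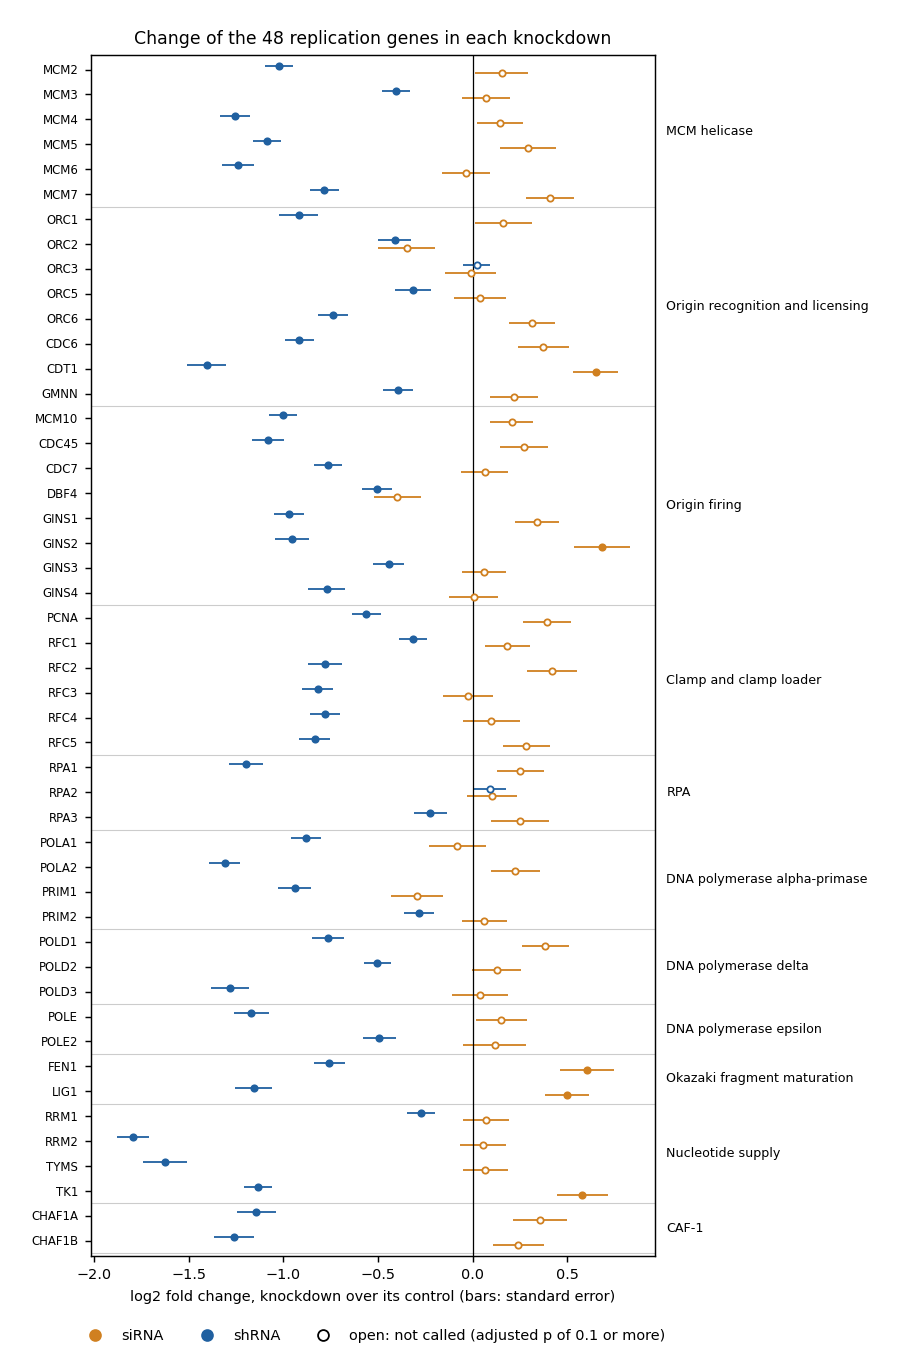
Log2 fold change with its standard error of each of the 48 genes after siRNA (orange) and after shRNA (blue), grouped by complex or step; filled points were called. Every blue point but those of ORC3 and RPA2 is filled and lies below zero, and the only filled orange points are CDT1, GINS2, FEN1, LIG1 and TK1, above zero.

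The ORC and licensing group, 8 genes, had a median change of -0.57 after shRNA and 0.19 after siRNA. After shRNA 7 of the 8 were called lower, against 30.9% of all genes tested. CDT1 (chr16:88870197-88875666 in GRCh37, plus strand), which loads MCM2-7 with CDC6, fell most in this group. It was at 39.3 and 37.1 CPM in shCON and 13.1 and 15.7 CPM in shETS1. Its levels in shETS1 were 37.7% of shCON, a log2 fold change of -1.40 ± 0.10 (adjusted p = 4.24e-09). In the siRNA table CDT1 was at 39.9 and 44.1 CPM in siRNA control and 66.4 and 65.3 CPM in ETS1 siRNA, both knockdown libraries above both controls. Its log2 fold change of 0.65 ± 0.12 was called (adjusted p = 0.0443). With offsets for gene length and GC content that value was 0.40 (adjusted p = 0.086). ORC3 (chr6:88299785-88377171, plus strand), a core ORC subunit, changed least in this group, being at 95.968 and 103 CPM in shCON and 100.3 and 101 CPM in shETS1. The shCON and shETS1 values overlapped, and the log2 fold change was 0.021 ± 0.073 (adjusted p = 0.827). In the siRNA libraries ORC3 was at 95.8 and 83.8 CPM in siRNA control and 91.1 and 87.3 CPM in ETS1 siRNA, again with overlap (-0.010 ± 0.13). With the length and GC offsets ORC3 was -0.14 after shRNA and was called lower there (adjusted p = 0.057). The other members were ORC1 at -0.92, ORC2 at -0.41, ORC5 at -0.31, ORC6 at -0.74, CDC6 at -0.91 and GMNN at -0.39 on the log2 scale after shRNA, all called lower. ORC5 was -0.20 (adjusted p = 0.096) without shETS1 replicate 1. ORC2, another core subunit, was 1 of 3 members, with DBF4 and PRIM1, in which both ETS1 siRNA libraries lay below both controls, where 26.2% of all genes tested did so.

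All 6 subunits of the MCM2-7 helicase were called lower after shRNA, against 30.9% of all genes tested, with a median of -1.06. MCM4 (chr8:48872745-48890720, plus strand) changed most, and MCM3 (chr6:52128812-52149679, minus strand) least. MCM4 was at 361 and 371 CPM in shCON and 144 and 163 CPM in shETS1. The groups did not overlap and shETS1 was at 41.9% of shCON, a log2 fold change of -1.26 ± 0.080 (adjusted p = 7.06e-10). MCM3 was at 133 and 138 CPM in shCON and 105 and 100.3 CPM in shETS1, also without overlap (-0.41 ± 0.072, adjusted p = 0.000128). Subunits of the same ring thus had unlike changes, with MCM2 (-1.02), MCM5 (-1.09), MCM6 (-1.24) and MCM7 (-0.78) lying between MCM4 and MCM3. After siRNA none of the 6 was called, where 3.41% of all genes tested were, and their median was 0.15. MCM4 was at 295 and 293 CPM in siRNA control and 337 and 314 CPM in ETS1 siRNA in that table (0.15 ± 0.12, adjusted p = 0.557). MCM3 was at 135 and 137 CPM in siRNA control and 138 and 147 CPM in ETS1 siRNA (0.070 ± 0.13, adjusted p = 0.81), both libraries of the knockdown being a little above the controls. Reads of MCM7 can overlap those of AP4M1, a gene on the opposite strand that shares 392 exon bases with it and had 1304 reads in all against 37345.

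The 8 genes of origin firing were all called lower after shRNA, against 30.9% of all genes tested, with a median of -0.86. CDC45 (chr22:19466980-19508135, plus strand), the helicase cofactor, fell most and GINS3 (chr16:58328984-58440051, plus strand) least. CDC45 was at 52.1 and 51.9 CPM in shCON and 24.018 and 25.1 CPM in shETS1, the groups well apart (-1.08 ± 0.084, adjusted p = 9.19e-09). GINS3 was at 47.8 and 50.1 CPM in shCON and 37.3 and 34.7 CPM in shETS1 (-0.44 ± 0.083, adjusted p = 0.000205). GINS2 (chr16:85709804-85723679, minus strand), another subunit of the 4-part GINS complex, was at 37.1 and 40.5 CPM in shCON and 20.5 and 19.6 CPM in shETS1 (-0.95 ± 0.092). In the siRNA table the order was different. GINS2 was there at 21.3 and 26.2 CPM in siRNA control and 36.8 and 39.2 CPM in ETS1 siRNA, higher in both knockdown libraries than in either control. Its log2 fold change was 0.68 ± 0.15 (adjusted p = 0.0742), the highest of all 48 genes. GINS3 was at 38.4 and 38.990 CPM in siRNA control and 39.3 and 41.4 CPM in ETS1 siRNA (0.060 ± 0.12, adjusted p = 0.825) and CDC45 at 45.2 and 52.9 CPM in siRNA control and 57.006 and 61.3 CPM in ETS1 siRNA (0.27 ± 0.13, adjusted p = 0.303). The helicase activator MCM10 fell by 1.00 and the kinase CDC7 by 0.76 on the log2 scale after shRNA, while its regulatory partner DBF4 was at -0.50, GINS1 at -0.97 and GINS4 at -0.77.

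PCNA and the 5 RFC subunits were all called lower after shRNA, where 30.9% of all genes tested were, with a median of -0.78. None was called after siRNA, where the median was 0.23 and 3.41% of all genes tested were called. RFC5 (chr12:118451393-118470935, plus strand) was at 61.1 and 63.2 CPM in shCON and 36.5 and 33.4 CPM in shETS1 (-0.83 ± 0.082, adjusted p = 1.7e-07). The large subunit RFC1 (chr4:39289076-39367995, minus strand) changed least, at 81.4 and 86.2 CPM in shCON and 66.5 and 68.1 CPM in shETS1 (-0.32 ± 0.074, adjusted p = 0.00159). Neither gene overlapped between the groups. RFC2, RFC3 and RFC4, the remaining small subunits, were within 0.05 of each other at -0.78, -0.82 and -0.78, and PCNA itself was at -0.56. After siRNA RFC5 was at 41.4 and 44.3 CPM in siRNA control and 48.9 and 55.3 CPM in ETS1 siRNA (0.28 ± 0.12, adjusted p = 0.27). RFC1 was at 39.8 and 43.7 CPM in siRNA control and 49.2 and 45.7 CPM in ETS1 siRNA (0.18 ± 0.12, adjusted p = 0.454). Both stood higher without overlap, as 25.7% of all genes tested did, and neither was called. RFC5 shares 186 exon bases on the opposite strand with WSB2, which had 17097 reads in all against 8364, so that its counts are uncertain.

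The RPA trimer was uneven. RPA1 (chr17:1732996-1803376, plus strand), its large DNA-binding subunit, was at 108 and 107 CPM in shCON and 42.3 and 51.5 CPM in shETS1, a fall to 43.6% of shCON (-1.20 ± 0.088, adjusted p = 4.82e-09). RPA2 (chr1:28218035-28241257, minus strand), singled out here after its values were seen, was at 66.971 and 67.9 CPM in shCON and 77.973 and 65.7 CPM in shETS1 with overlap between the groups (0.091 ± 0.085, adjusted p = 0.387). Without shETS1 replicate 2 RPA2 was called higher, at 0.21 (adjusted p = 0.037). The small subunit RPA3 was called lower at -0.22 (adjusted p = 0.0372), a call that was lost without shCON replicate 2 (-0.11) or shETS1 replicate 2 (-0.17). In the siRNA table RPA1 was at 147 and 154 CPM in siRNA control and 175 and 182 CPM in ETS1 siRNA (0.25 ± 0.13, adjusted p = 0.325). RPA2 was at 78.4 and 81.2 CPM in siRNA control and 79.7 and 91.8 CPM in ETS1 siRNA, again with overlap (0.10 ± 0.13).

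Polymerase alpha-primase fell as a whole after shRNA, with a median of -0.91 and all 4 genes called lower, against 30.9% of all genes tested. POLA2 (chr11:65029384-65073430, plus strand), the B subunit, was at 59.6 and 58.6 CPM in shCON and 23.4 and 24.2 CPM in shETS1 (-1.31 ± 0.083, adjusted p = 6.92e-10). PRIM2 (chr6:57179603-57513376, plus strand), the large primase subunit, was at 51.043 and 51.7 CPM in shCON and 43.2 and 41.4 CPM in shETS1 (-0.28 ± 0.079, adjusted p = 0.00591). The catalytic POLA1 (-0.88) and the small primase subunit PRIM1 (-0.94) lay between these. With the length and GC offsets PRIM2 was -0.49. After siRNA the median of the complex was -0.0089 and no member was called, where 3.41% of all genes tested were. POLA2 was at 68.9 and 78.6 CPM in siRNA control and 87.9 and 84.6 CPM in ETS1 siRNA (0.23 ± 0.13, adjusted p = 0.39). PRIM2 was at 37.2 and 37.9 CPM in siRNA control and 40.7 and 37.8 CPM in ETS1 siRNA, overlapping (0.063 ± 0.12). PRIM1 shares 139 exon bases on the same strand with NACA, which had 93271 reads in all against 5344, so that its counts are uncertain.

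Of the replicative polymerases, the 3 delta genes had a median of -0.76 and the 2 epsilon genes of -0.83 after shRNA. All 5 were called lower there, against 30.9% of all genes tested. POLD3 (chr11:74204896-74380162, plus strand), an accessory subunit of polymerase delta, was at 35.7 and 36.5 CPM in shCON and 16.2 and 13.5 CPM in shETS1 (-1.28 ± 0.10, adjusted p = 1.31e-08). POLE (chr12:133200339-133263962, minus strand), the catalytic subunit of the leading strand polymerase, was at 63.8 and 55.8 CPM in shCON and 24.9 and 28.2 CPM in shETS1 (-1.17 ± 0.093, adjusted p = 1.25e-08). The catalytic POLD1 was at -0.76 and the accessory subunits POLD2 and POLE2 at -0.50 and -0.49. POLD2 was -0.29 with the length and GC offsets. In the siRNA libraries POLD3 was at 18.7 and 19.5 CPM in siRNA control and 21.036 and 18.3 CPM in ETS1 siRNA (0.039 ± 0.15), and POLE was at 71.7 and 72.6 CPM in siRNA control and 88.037 and 72.4 CPM in ETS1 siRNA (0.15 ± 0.14). Both overlapped between the groups, and none of the 5 genes was called after siRNA, where 3.41% of all genes tested were.

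The enzymes of Okazaki fragment maturation, the flap nuclease FEN1 (chr11:61560383-61564710, plus strand) and the DNA ligase LIG1 (chr19:48618702-48673860, minus strand), were called in both comparisons, in opposite directions. FEN1 was at 90.8 and 105 CPM in siRNA control and 139.5 and 157 CPM in ETS1 siRNA, higher without overlap (0.60 ± 0.14, adjusted p = 0.093). In the shRNA table it was at 77.5 and 82.1 CPM in shCON and 49.8 and 44.7 CPM in shETS1, lower without overlap (-0.76 ± 0.081, adjusted p = 4.68e-07). LIG1 was at 33.6 and 35.1 CPM in siRNA control and 48.3 and 48.7 CPM in ETS1 siRNA (0.50 ± 0.12, adjusted p = 0.0928). In the shRNA table it was at 36.4 and 34.7 CPM in shCON and 16.9 and 15.043 CPM in shETS1 (-1.16 ± 0.097, adjusted p = 2.45e-08). For LIG1 this is a level of 141% of control after siRNA and of 44.9% after shRNA. FEN1 shares 49 exon bases with FADS2 on the same strand, which had 596 reads in all against 15437.

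Nucleotide supply held both the largest and 1 of the smallest falls. RRM2 (chr2:10260825-10351851, plus strand), the S-phase subunit of ribonucleotide reductase, was at 161 and 152 CPM in shCON and 41.2 and 48.9 CPM in shETS1, down to 28.8% of shCON. This log2 fold change of -1.79 ± 0.086 (adjusted p = 1.87e-11) was the lowest of the 48 genes. Its partner RRM1 (chr11:4115937-4160162, plus strand), the large subunit, was at 225 and 243 CPM in shCON and 195 and 192 CPM in shETS1, without overlap but much closer together (-0.27 ± 0.073, adjusted p = 0.00465). The salvage kinase TK1 (chr17:76170172-76183314, minus strand) was at 171 and 181 CPM in shCON and 81.8 and 78.5 CPM in shETS1 (-1.14 ± 0.074, adjusted p = 9.57e-10). TYMS, which makes thymidylate, was at 20.5 and 20.7 against 6.53 and 6.81 CPM in shCON against shETS1 (-1.62 ± 0.12, adjusted p = 3.29e-09), second to RRM2. TYMS shares 967 exon bases with ENOSF1 on the opposite strand, which had 2667 reads in all against 4712. After siRNA only TK1 was called among the 4, at 155 and 176 CPM in siRNA control and 237 and 257 CPM in ETS1 siRNA (0.58 ± 0.13, adjusted p = 0.0894). With the length and GC offsets TK1 was 0.31 and not called (adjusted p = 0.16). RRM2 was at 202 and 199 CPM in siRNA control and 205 and 213 CPM in ETS1 siRNA (0.057 ± 0.12, adjusted p = 0.845), and RRM1 was at 226 and 227 CPM in siRNA control and 236 and 239.7 CPM in ETS1 siRNA (0.070 ± 0.12). Their ETS1 siRNA libraries lay above the controls by a margin within the standard error.

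The CAF-1 histone chaperone genes fell together after shRNA, with a median of -1.20. CHAF1B (chr21:37757690-37791313, plus strand), the middle subunit, was at 33.1 and 31.1 CPM in shCON and 12.1 and 14.6 CPM in shETS1 (-1.26 ± 0.11, adjusted p = 2.51e-08), and CHAF1A, the large subunit, was at -1.14 ± 0.10. In the siRNA table CHAF1B was at 28.4 and 30.3 CPM in siRNA control and 32.2 and 37.1 CPM in ETS1 siRNA (0.24 ± 0.13, adjusted p = 0.378). CHAF1B shares 89 exon bases on the same strand with MORC3, which had 18326 reads in all against 4647.

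**Figure D5:**
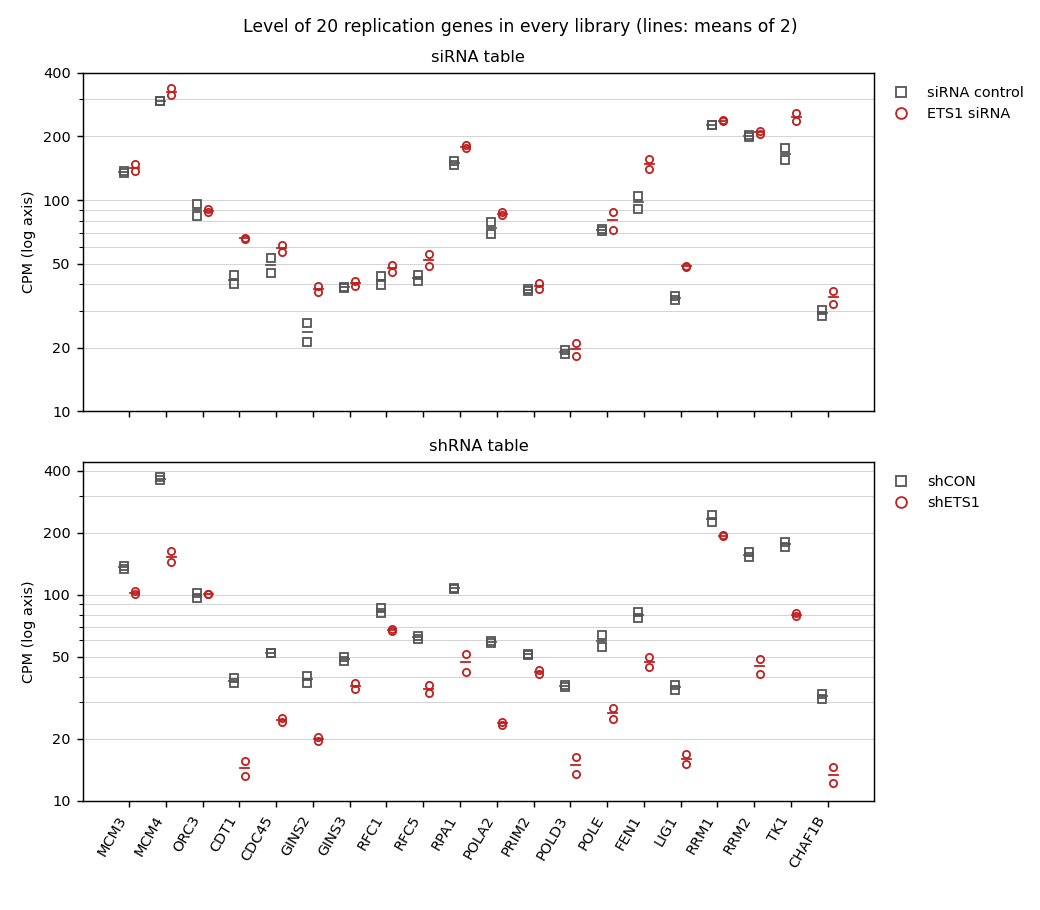
CPM on a log axis of 20 replication genes in each of the 8 libraries, siRNA table above and shRNA table below, controls as grey squares and knockdowns as red circles, lines marking means of 2. In the lower panel every gene but ORC3 has both shETS1 libraries below both shCON libraries. Since scaling was done per table, a level in the upper panel cannot be set against one in the lower.

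The difference between the knockdowns was tested gene by gene as the shRNA change minus the siRNA change, in 1 fit of all 8 libraries. By that test 43 of the 48 genes were called lower and 0 higher, against 19.7% of all 17190 genes tested called lower and 15.1% called higher. Of the 48, 27 differences were called and at least 2-fold lower, against 8.21% of all genes tested. The median difference was -1.15, where all genes tested had -0.020. CDT1 had the largest difference, -2.08 ± 0.16 (adjusted p = 2.44e-05). It was followed by RRM2 at -1.87 ± 0.15 (adjusted p = 2.8e-05) and TK1 at -1.74 ± 0.14 (adjusted p = 3.06e-05). The 5 genes without a called difference were ORC2, ORC3, ORC5, DBF4 and RPA2, at -0.083, 0.012, -0.37, -0.13 and -0.034. ORC2 and DBF4 were lower without overlap in both knockdowns, by estimates of -0.35 and -0.40 after siRNA that were not called (adjusted p = 0.263 and 0.157). Of all genes tested 26.2% were lower without overlap after siRNA and 38.6% after shRNA. By complex the median difference ran from -0.49 for RPA (-0.27 without ETS1 siRNA replicate 2) and -0.74 for polymerase alpha-primase, through -0.85 for licensing, -0.94 for clamp and loader, -0.99 for polymerase epsilon, -1.04 for origin firing, -1.17 for polymerase delta and -1.22 for the MCM helicase, to -1.52 for CAF-1, -1.53 for Okazaki fragment maturation and -1.72 for nucleotide supply. The tables also differed in the share of RNAs without a poly(A) tail, given above, and in mitochondrial reads, which were 0% of the counts in every siRNA library and 0.508% to 0.820% in the shRNA libraries. The part of this in the differences was not tested, and since each kind of knockdown had a table of its own, the kind of knockdown and the table cannot be told apart. Across the 48 genes the changes after siRNA and after shRNA, which rest on different control libraries, had a Pearson correlation of -0.26 and a Spearman correlation of -0.23, given as a description.

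Levels per length of all annotated exons of a gene, as RPKM in shCON, differed widely among the 48 genes. This length joins the exons of all transcripts of a gene, so that the ranking depends on the annotation. PCNA was highest at 199 RPKM, followed by TK1 at 95.4 and RRM1 at 55.2, and LIG1 was lowest at 3.13. Within complexes, MCM7 was at 42.9 and MCM6 at 26.8 RPKM, and RFC4 was at 28.9 and RFC1 at 12.5. Both POLA1 at 5.34 and POLA2 at 4.92 stood below PRIM1 at 13.3 RPKM, with exon lengths of 15547, 12006 and 3309 bases. In mean CPM of shCON, POLA1, POLA2 and PRIM1 were at 83.1, 59.1 and 44.1, so that PRIM1 was there the lowest of them. LIG1, with 11348 exon bases, was at 35.6 CPM, above TYMS at 20.6 CPM. ORC3 was at 24.2 RPKM and RPA2 at 34.041, so that neither gene without a call after shRNA was among the lowest.

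Members with and without an E2F word in the promoter changed to a similar degree. The median after shRNA was -0.90 in the 20 genes with the word, which ranged from -1.62 to 0.021, and -0.78 in the 22 without it, which ranged from -1.79 to -0.27. The 6 genes with the ETS word had a median of -0.83 and the 36 without it of -0.83. After siRNA the medians with and without the E2F word were 0.15 and 0.20. These are descriptions of 42 genes, with no test.

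Further genes of the pathway moved like the 48 after shRNA. Of 25 other replication and nucleotide genes, 21 were called lower and 2 higher, with a median of -0.61. Of all genes tested 30.9% were called lower and 29.7% higher. UHRF1, which ties DNA methylation to replication, was at 49.3 and 45.4 CPM in shCON and 12.7 and 14.6 CPM in shETS1 (-1.79 ± 0.099, adjusted p = 1.25e-10). TIMELESS, of the fork protection complex, was at 57.2 and 56.2 CPM in shCON and 16.4 and 17.4 CPM in shETS1 (-1.75 ± 0.088, adjusted p = 3.49e-11). Both dropped to a level far under the control libraries. The checkpoint mediator CLSPN was at -1.34, the alternative clamp loader subunits CHTF18 and DSCC1 at -1.16 and -1.15, and the RNase H2 subunit RNASEH2A at -1.02. The 2 that were called higher, chosen for naming after their values were seen, were the polymerase delta subunit POLD4 (2.94 and 4.39 against 6.40 and 5.30 CPM, 0.67 ± 0.19, adjusted p = 0.007) and the p53-inducible reductase subunit RRM2B (35.4 and 38.9 against 52.5 and 53.4 CPM, 0.51 ± 0.082, adjusted p = 4.71e-05). The call of POLD4 was lost without shCON replicate 1 (0.40). RRM2 and RRM2B, alternative partners of RRM1, thus went in opposite directions after shRNA. After siRNA 1 of the 25 was called, the helicase gene RECQL4, at 35.7 and 42.7 CPM in siRNA control and 55.3 and 57.9 CPM in ETS1 siRNA (0.53 ± 0.13, adjusted p = 0.0987).

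Of 18 E2F, RB family and S-phase cyclin regulators, 11 (61.1%) were called lower and 4 (22.2%) higher after shRNA. Of all genes tested 30.9% were called lower and 29.7% higher, so that the share called higher was not above that of all genes. E2F7, a repressor of the family, was at 42.4 and 35.9 CPM in shCON and 7.40 and 8.67 CPM in shETS1 (-2.28 ± 0.12, adjusted p = 4.48e-11). The activator E2F1 was at 22.2 and 23.5 CPM in shCON and 10.7 and 10.3 CPM in shETS1 (-1.12 ± 0.11, adjusted p = 1.17e-07), and the E2F partner TFDP1 was at -0.90. Cyclin A2 (CCNA2) was at -1.09 and the CDK-activating phosphatase CDC25A at -1.10. The 4 that were called higher, named after their values were seen, were the repressor E2F6 (0.26), the E2F partner TFDP2 (0.68), the RB relative RBL2 (0.48) and cyclin E1 (CCNE1, 0.43). The calls of E2F6 and CCNE1 were lost without shCON replicate 1 (0.24 and 0.29), and that of E2F6 also without shCON replicate 2 (0.28). The kinase CDK2 was the 1 gene of this list called after siRNA, at 40.1 and 42.9 CPM in siRNA control and 69.1 and 72.8 CPM in ETS1 siRNA (0.77 ± 0.12, adjusted p = 0.0273). After shRNA CDK2 was at 58.987 and 60.3 CPM in shCON and 34.8 and 35.2 CPM in shETS1 (-0.77 ± 0.079, adjusted p = 2.9e-07), the reverse direction.

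A list of 26 mitosis genes was set beside the replication genes. After shRNA all 26 were called lower, where 30.9% of all genes tested were. Their median was -0.85, close to the -0.83 of the replication genes. The mitotic kinase PLK1 was at 70.983 and 65.9 CPM in shCON and 12.2 and 15.004 CPM in shETS1 (-2.33 ± 0.10, adjusted p = 4.84e-12). The spindle factor TPX2 was at -1.29, the kinase AURKB at -1.36 and its complex partner CDCA8 at -1.31, and the checkpoint genes CDC20 and BUB1B at -1.17 and -1.12. After siRNA the summed level of the mitosis genes was 3934 and 4034 CPM in siRNA control and 4027 and 3910 CPM in ETS1 siRNA, overlapping. Without TPX2 it was 3655 and 3747 CPM in siRNA control and 3857 and 3762 CPM in ETS1 siRNA, apart by a narrow margin. TPX2, the 1 mitosis gene called lower, was left out after its values were seen, while PLK1, the 1 called higher, was kept. The sum without TPX2 is therefore no sign that the other mitosis genes rose. The median change of the 26 mitosis genes after siRNA was 0.057, with 16 estimates above zero, and 11 were higher and 4 lower without overlap. Of all genes tested 25.7% were higher and 26.2% lower without overlap, and 49.8% of the estimates lay below zero. For the replication genes the ETS1 siRNA libraries, 4578 and 4686 CPM, both lay above the controls, 3876 and 4086 CPM. The difference between the lists was not tested. Among the mitosis genes 1 was called higher after siRNA, PLK1 at 108 and 127 CPM in siRNA control and 177 and 173 CPM in ETS1 siRNA (0.58 ± 0.14, adjusted p = 0.0934), and 1 lower, TPX2 at 279 and 287 CPM in siRNA control and 169 and 149 CPM in ETS1 siRNA (-0.83 ± 0.13, adjusted p = 0.0302).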

How the data were processed

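Per the labels and the study's methods, the authors made TruSeq libraries from total RNA, mapped single-end reads to GRCh37 with TopHat2 2.1.1 and Bowtie2 2.2.6, and deposited raw read counts per gene symbol from featureCounts 1.5.0 (Ensembl GRCh37 annotation), a table for each knockdown. Neither the strand setting nor the handling of multiply mapped reads is given in the sources used here, so that overlapping genes can share reads. Beside the overlaps named above, RPA3 shares 118 exon bases with RPA3-AS1 (3686 reads against 9155) and DBF4 145 with SLC25A40 (2999 against 7151). RPA1 shares 175 with SMYD4 (4845 against 19890), and a few other members also overlap. Reads of pseudogenes named after a member came to at most 0.727% of that member's.

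The 2 comparisons, ETS1 siRNA against siRNA control and shETS1 against shCON, were fitted on 4 libraries each, in R 4.3.3 with edgeR 4.0.16 (TMM scaling, filterByExpr, quasi-likelihood F-test, two-sided, Benjamini-Hochberg adjustment over all genes tested, called at an adjusted p under 0.1, the threshold of the study). Counts are raw, CPM are counts relative to the scaled library size within a table, and RPKM are these divided by the length of all exons of the gene in kilobases, from GENCODE v44 lifted to GRCh37, which also gave gene positions. A standard error is the log2 fold change divided by the square root of F. The difference between knockdowns was tested in 1 fit of all 8 libraries. The total counts were 15954616 to 25953213 per library, and the common dispersion was 0.0192 in the siRNA and 0.00402 in the shRNA comparison, so that the former was the less precise.

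Genes were named by a rule: those called after siRNA, the largest and smallest change after shRNA in each of 11 groups (the largest alone in groups of 3 or fewer), and the 3 largest differences in each direction, of which only ORC3 was above zero. In each other list up to 6 genes with the lowest adjusted p after shRNA and all those called after siRNA were named. The members and lists were chosen with earlier results of these data known. Promoters came from RefSeq (GRCh38.p14), searched on both strands. Of the 56638 symbols, 33522 matched a current and 1898 an older symbol. The edgeR fit was also run on simulated data, with an outcome that is not given here.

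Alternatives were DESeq2 1.42.0 and its size factors, library size only, scaling without RNAs that lack a poly(A) tail and mitochondrial genes, other filters on low counts, an adjusted p under 0.05, all 8 libraries in 1 fit, gene length and GC offsets, the replicate number as a block, and leaving out each library. Gene length and GC content were known for 91.9% of the genes tested after siRNA and 86.8% after shRNA. Libraries with the same replicate number did not deviate together (correlation -0.538 in the siRNA and -0.244 in the shRNA table, over genes). With 2 replicates the deviations within a group mirror each other, so that libraries with unlike numbers deviated together to the same degree. The fits as reported treat the libraries as unpaired and do not model this.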

Additional observations from a re-analysis of the deposited data

Results flagged for a closer look

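A total of 43 members had a change after shRNA that differed from that after siRNA by the test of the difference itself, the shRNA change minus the siRNA change on the log2 scale (edgeR quasi-likelihood F-test, adjusted p under 0.1). All 43 differences were below zero, where 19.7% of all genes tested were called lower. In the MCM helicase the difference was -1.20 for MCM2, -0.50 for MCM3, -1.42 for MCM4, -1.40 for MCM5, -1.22 for MCM6 and -1.21 for MCM7. In the licensing group the difference was -1.10 for ORC1, -1.07 for ORC6, -1.31 for CDC6, -2.08 for CDT1 and -0.63 for GMNN. Among origin firing genes the difference was -1.23 for MCM10, -1.37 for CDC45, -0.85 for CDC7, -1.33 for GINS1, -1.66 for GINS2, -0.52 for GINS3 and -0.80 for GINS4. In the clamp and its loader the difference was -0.98 for PCNA, -0.52 for RFC1, -1.22 for RFC2, -0.82 for RFC3, -0.90 for RFC4 and -1.14 for RFC5. In RPA the difference was -1.47 for RPA1 and -0.49 for RPA3. In polymerase alpha-primase the difference was -0.82 for POLA1, -1.56 for POLA2, -0.67 for PRIM1 and -0.36 for PRIM2. In polymerase delta the difference was -1.17 for POLD1, -0.65 for POLD2 and -1.34 for POLD3. In polymerase epsilon the difference was -1.34 for POLE and -0.63 for POLE2. For Okazaki fragment maturation the difference was -1.38 for FEN1 and -1.68 for LIG1. In nucleotide supply the difference was -0.36 for RRM1, -1.87 for RRM2, -1.71 for TYMS and -1.74 for TK1. In CAF-1 the difference was -1.52 for CHAF1A and -1.52 for CHAF1B. Each kind of knockdown had a table of its own, so that the kind of knockdown and the table cannot be told apart.

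Of 25 genes of the other lists that are named in the text, 19 had a called difference below zero and 3 one above zero. Most were named for their change after shRNA, which is part of the difference, so that this count does not describe the lists. In the whole lists, 17 of 25 other replication and nucleotide genes, 9 of 18 E2F-RB regulators and 26 of 26 mitosis genes were called lower. In the same order 1, 2 and 0 were called higher. Of all genes tested 19.7% were called lower and 15.1% higher. Among the 25 named genes, those above zero were RRM2B at 0.72, E2F6 at 0.58 and TFDP2 at 0.69, and those not called were POLD4, RBL2 and CCNE1. Of the other replication and nucleotide genes, the difference was -1.29 for CLSPN, -1.77 for TIMELESS, -1.33 for RECQL4, -1.58 for RNASEH2A, -1.82 for UHRF1, -1.20 for DSCC1 and -1.58 for CHTF18. Of the E2F-RB and cyclin regulators, it was -1.55 for E2F1, -2.47 for E2F7, -0.74 for TFDP1, -0.64 for CCNA2, -1.56 for CDK2 and -0.84 for CDC25A. Of the mitosis genes, it was -2.92 for PLK1, -1.60 for AURKB, -1.05 for BUB1B, -0.48 for TPX2, -1.45 for CDC20 and -1.35 for CDCA8. TPX2 was called lower in both knockdowns, so that its difference is one of size, and CDK2, PLK1 and RECQL4 were called in opposite directions in the 2 comparisons, as were CDT1, GINS2, FEN1, LIG1 and TK1 among the members.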

How the results depend on the processing

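The count of members called after shRNA stayed nearly the same: 45 to 47 members were called lower under every alternative and none higher, except 1, RPA2, without shETS1 replicate 2 (0 to 1 called higher when leaving out each library). The member median after shRNA was -0.95 with library size only, where the median of all genes tested moved to -0.12, and -0.89 with length and GC offsets, with or without the replicate block. The median difference between knockdowns was -1.24 with library size only, where that of all genes moved to -0.11, and -1.07 with length and GC offsets, with or without the block, and 39 to 46 members were called lower. The siRNA result was fragile. The genes called were 1466 with no filter, 791 with the filter of the study, 797 with DESeq2, 2166 with all 8 libraries in 1 fit, 190 at an adjusted p under 0.05, and 72 to 1478 when leaving out each library, with 72 without siRNA control replicate 1. Members called higher were 12 with all 8 libraries, 1 at 0.05 and 0 to 9 when leaving out each library, and members called lower were 1 with all 8 libraries and otherwise 0. The median member change after siRNA was 0.13 to 0.23 when leaving out each library.

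With the replicate number as a block, which only 2 pairs could inform and which the numbers are not shown to support, 97 genes and 0 members were called after siRNA, and with length and GC offsets as well 137 and 0. Crossing the numbers gave 3238 genes, 14 members higher and 2 lower. After shRNA 46 members were called lower with the block, and 40 had a called difference.

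Single genes recomputed numbered 74 after shRNA and for the difference but only 26 after siRNA, mostly those named by the rule. Members near zero after siRNA outside that rule, such as GINS4 (0.0054), were therefore not checked there. Among the values recomputed, those that changed sign belonged to genes that were not called in that comparison as reported, with a change between -0.083 and 0.10. With length and GC offsets, without and with the replicate block, MCM3 was -0.0046 and -0.0051 and ORC3 0.10 and 0.10 after siRNA, ORC3 was -0.14 and -0.14 and RPA2 -0.0092 and -0.013 after shRNA, and the difference of ORC3 was -0.27 and -0.27. With library size only ORC3 was -0.10 and RPA2 -0.037 after shRNA, and the difference of ORC3 was -0.074. The difference of ORC3 was -0.00092 with no filter, and that of RPA2 0.0014 with at least 10 counts in every library and 0.0029 with the filter of the study. When leaving out each library, ORC3 ranged from -0.10 to 0.089, POLD3 from -0.061 to 0.14 and RPA2 from -0.0057 to 0.21 after siRNA, and ORC3 from -0.033 to 0.071 and RPA2 from -0.043 to 0.21 after shRNA. The differences ranged from -0.24 to 0.034 for ORC2, from -0.098 to 0.091 for ORC3 and from -0.15 to 0.076 for RPA2. Of 1406 single-gene differences recomputed, 1347 kept their direction and their side of the threshold, as did 1164 of 1184 shRNA values and 364 of 416 siRNA values. RRM1, PRIM2, RPA3, POLD2, POLE2, TPX2, RRM2B and E2F6 lost a called difference under at least 1 alternative, and E2F6 lost its call after shRNA with library size only, with DESeq2 and with the offsets and the block.

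The medians of the complexes kept their sign in every alternative after shRNA and for the difference between knockdowns. With library size only, those after shRNA were -1.18 for the MCM helicase, -0.70 for origin recognition and licensing, -0.99 for origin firing, -0.90 for the clamp and its loader, -1.04 for polymerase alpha-primase, -0.96 for polymerase epsilon, -1.08 for Okazaki fragment maturation and -1.51 for nucleotide supply. With length and GC offsets, equal to 2 decimals with and without the replicate block unless both are given, they were -0.90 (MCM), -0.95 (firing), -0.96 (alpha-primase), -0.61 (delta), -0.77 (epsilon) and -0.83 (Okazaki), and the differences were -1.04 (MCM), -1.17 (firing), -0.90 (alpha-primase), -0.81 (delta), -1.30 and -1.29 (Okazaki) and -1.51 (nucleotide supply). The difference for origin recognition and licensing was -0.94 with library size only, -0.82 with at least 10 counts in every library and -0.81 with the filter of the study. After siRNA the offsets gave 0.17 (firing), 0.19 and 0.18 (alpha-primase, from -0.0089) and 0.14 (nucleotide supply). When leaving out each library, the median after siRNA ranged from 0.015 to 0.29 for RPA, lowest without ETS1 siRNA replicate 2, and from -0.10 to 0.11 for alpha-primase. After shRNA it ranged from -1.12 to -0.99 for the MCM helicase and from -0.66 to -0.55 for origin recognition and licensing. The difference ranged from -1.32 to -1.17 for the MCM helicase, from -0.94 to -0.78 for origin recognition and licensing and from -0.70 to -0.27 for RPA, nearest zero without ETS1 siRNA replicate 2.

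Of the other lists, counts after siRNA were small throughout: 0 to 5 of the other replication and nucleotide genes, 0 to 4 E2F-RB regulators and 0 to 1 mitosis gene were called higher, and at most 1, 2 and 2 lower. Other replication and nucleotide genes called higher numbered 3 with no filter, the filter of the study or DESeq2, 2 with at least 10 counts, 5 with all 8 libraries or crossed numbers, and 0 with library size only, at 0.05, with the block or with the offsets. E2F-RB regulators called higher numbered 3 with no filter, the filter of the study or all 8 libraries, 2 with DESeq2, DESeq2 size factors or at least 10 counts, and 4 with crossed numbers. For the difference, 2 other replication genes were called higher with the filters, the offsets or crossed numbers, and 1 E2F-RB regulator with offsets and block. When leaving out each library, 0 to 4 of the other replication genes were called higher after siRNA and 0 to 1 lower, 0 to 1 E2F-RB regulator higher and 0 to 1 lower, and 0 to 1 mitosis gene higher and 0 to 2 lower. After shRNA 2 to 4 E2F-RB regulators and 1 to 2 other replication genes were called higher, both lowest without shCON replicate 1, and 1 to 2 other replication genes had a called higher difference.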
